A study of Solanum lycopersicum with 12 samples.

Results

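The genes described here form a run of 50 neighbours near the start of tomato chromosome 5, from Solyc05g005800 to Solyc05g006560, among 17887 genes measured in red ripe fruit. They were taken by their identifiers, which number genes in order along each chromosome. The run was chosen by the measured difference between the parental lines Q and G, as the one with the most called genes among 349 adjoining windows of 50 genes counted from the start of each chromosome. Windows of 50 genes that start elsewhere on chromosome 5 hold up to 16 called genes, against 14 in the block. Levels in Q and G are therefore given as a description, and no test is read from them. RNA came from mesocarp, the flesh of the fruit wall, of greenhouse-grown plants.

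Q (Querubín FCA) and G (Gema FCA) are recombinant inbred lines, lines made uniform by repeated selfing, from a cross between Solanum lycopersicum, the cultivated tomato, and its wild relative S. pimpinellifolium. QxG and GxQ are the hybrids of these lines with the order of the cross exchanged. The labels name no treatment, and all 12 libraries, 3 for each of 4 genotypes, share stage, tissue and the same founders. Each library is 1 fruit, and nothing says that the 3 fruits of a genotype came from different plants, so p-values measure the spread between these fruits.

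A recombinant inbred line carries long stretches of chromosome from one founder or the other, so neighbouring genes usually descend from the same founder. Where lines carry different founder segments, each gene in the segment can differ in its own regulatory or coding sequence, in either direction. A hybrid of such lines has a copy of each segment. If each copy keeps the output it had in its own line, the hybrid stands at the arithmetic mean of the parents, called the mid-parent here. The order of the cross decides which parent gives the plastids, the mitochondria and the maternal share of the seed. Which founder Q or G carries in the block was not analysed here. The identifiers also carry no gene names here, so the members are described by identifier and no function is given.

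Library totals ran from 15207931 to 25320267 counts. Of the marker genes, identified from general knowledge, all 4 of ripe flesh (PSY1, PG2A, PL and E8) were in the table. Their summed level, in counts scaled to library size (CPM), was 15096 to 35717 CPM in Q and 23466 to 25112 in G. In the hybrids it was 17397 to 24185 CPM in QxG and 11855 to 17636 in GxQ. The third Q library was the highest of Q for each of the 4. The part of these differences in the values below was not tested. Epidermis markers, 2 of 3 in the table, summed to 13.4 to 22.1 CPM in Q, 11.2 to 11.4 in G, 5.02 to 9.73 in QxG and 4.38 to 16.02 in GxQ. They went opposite ways between the parents. CER6 stood at 3.52 to 12.8 CPM in Q and 0.0980 to 1.01 CPM in G, and CD2 at 8.46 to 9.89 and 10.2 to 11.2 CPM. The green tissue marker in the table, RBCS2A, stood at 43.6 to 175 CPM in Q and 186 to 470 CPM in G, a difference whose part in the values below was not tested. In the hybrids it stood at 93.8 to 234 CPM in QxG and 80.0 to 219 CPM in GxQ. Libraries that stood apart were the third of Q and the first of QxG. The first QxG library had 1436 genes at 0 and 77 at 1 to 4 counts, against 31 to 338 and 100 to 730 elsewhere, so a 0 there is not read as absence. Among the 50 members, 13 were under 0.5 times the mean of the first and second Q library in the third, and 2 were over 2 times that mean.

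The members spanned a wide range of levels. Averaged over all libraries they ran from 0.482 to 343 CPM with a median of 11.2 CPM. Of the 50, 7 averaged under 1 CPM and 3 averaged 100 CPM or more. Each gene listed by the authors exceeded 0.5 CPM in 3 or more libraries, so a member found in 1 genotype alone entered through that genotype. Genes of the stretch below that level were not analysed here. CPM are not divided by transcript length, so levels are compared between samples of a gene and not between genes. In bulk tissue, fewer cells of a type and less RNA per cell cannot be told apart.

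Between Q and G, 14 of the 50 members were called, against 7.31% of all genes, and the choice of the window fixes this excess. Called means an adjusted p under 0.05 in edgeR's quasi-likelihood test with Benjamini-Hochberg adjustment over all genes. Of the 14, 6 were higher in Q, against 4.51% of all genes, and 8 were higher in G, against 2.81%, and the libraries of Q and G did not overlap for any of them. Libraries of the parents did not overlap for 30 of the 50 members, against 38.4% of all genes. Directions were grouped along the block. The first 5 called members in identifier order were higher in Q, and of the 9 that follow 8 were higher in G and 1 was higher in Q.

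**Figure D1:**
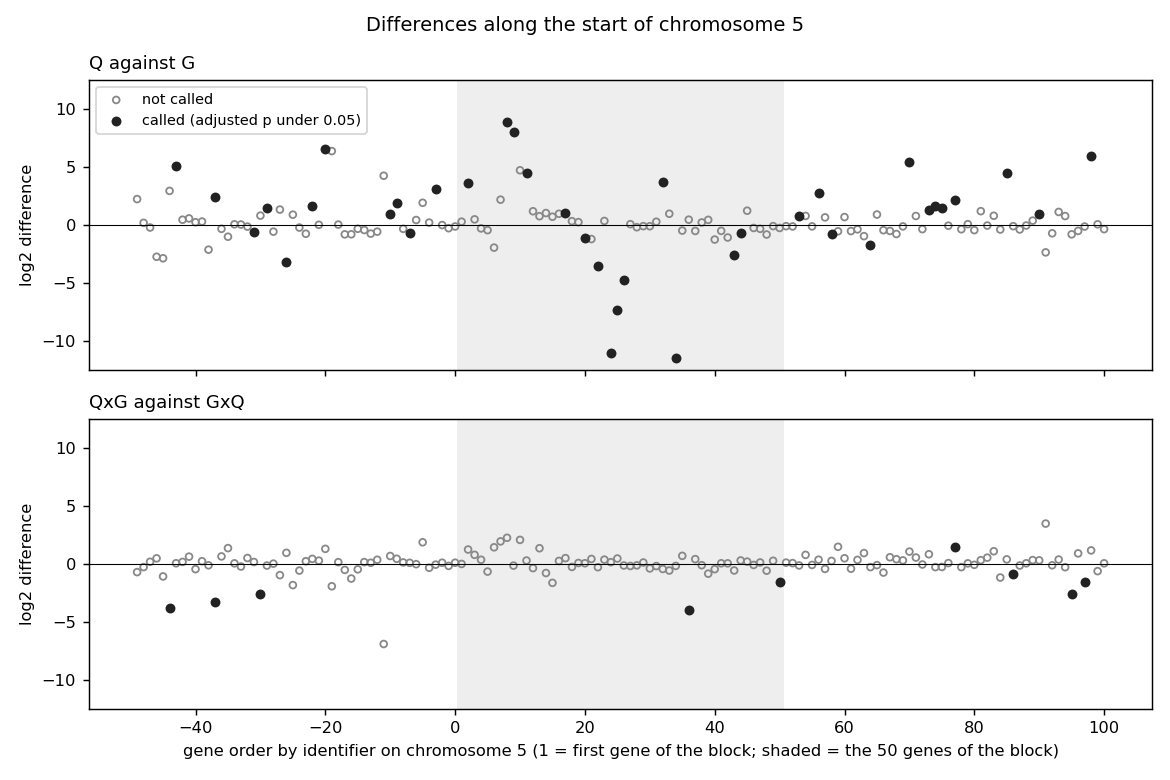
Log2 differences of Q against G (upper) and of QxG against GxQ (lower) for 150 neighbouring genes in identifier order, with the 50 genes of the block shaded and called genes filled. The 14 called members sit above 0 first and mostly below 0 later in the upper plot, where points beyond about 7 belong to genes with 0 counts in a parent and depend on the small count the fit adds; the lower plot has 2 called members.

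The block did not stand out sharply from its surroundings in the number of called genes. The 50 tested genes before it, which reach back to the first gene of the chromosome in the table, held 11 called genes, 8 higher in Q and 3 higher in G. The 50 genes after it held 12, of which 10 were higher in Q and 2 higher in G. Over these 150 genes 24.7% were called, against 5.92% of the other 1047 genes of chromosome 5. The median absolute log2 difference was 0.79 in the block, 0.75 before it and 0.65 after it, against 0.33 in the rest of the chromosome and 0.35 over all genes. The nearest called neighbours were Solyc05g005760, with means of 5.34 ± 2.80 CPM (Q) and 0.631 ± 0.226 CPM (G), and Solyc05g006620, with 23.8 ± 2.11 and 14.4 ± 1.74 CPM (SD, n = 3 each).

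Some transcripts of the block were found in a single parent. A gene was counted so if its mean reached 1 CPM in that parent while every library of the second parent had 0 counts. This held for 5 of the 50 members, against 35 of 17887 genes (0.196%). In the 100 flanking genes there were 0, and in the rest of chromosome 5 there were 2. Of the 5, 3 were found in G (Solyc05g006140, Solyc05g006150 and Solyc05g006370) and 2 in Q (Solyc05g005940 and Solyc05g005950). These belong to the parental description above and carry no test. A count of 0 allows up to 3 counts, or 0.117 to 0.202 CPM depending on the library, and this covers counting error only.

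Solyc05g006370 stood at 18.9, 16.2 and 19.5 CPM in G and 0 in every Q library. The G mean of 18.2 ± 1.80 CPM was at least 413-fold higher than 3 counts over the 3 Q libraries together. In QxG it stood at 5.78, 11.01 and 9.49 CPM and in GxQ at 10.2, 11.05 and 8.49 CPM. All 6 hybrid libraries lay below all 3 of G and above all 3 of Q, with means at 48.1% and 54.5% of the G level in QxG and GxQ.

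Solyc05g006140 and its neighbour Solyc05g006150 were found in G together. Solyc05g006140 stood at 11.7, 14.3 and 13.8 CPM in G, at least 301-fold above the limit of 3 counts over the Q libraries. In QxG it stood at 9.61, 1.15 and 2.19 CPM, so that the first library lay far above the other two, and in GxQ at 3.32, 3.67 and 4.93 CPM. Its share of the G level was 32.5% in QxG, or 12.6% leaving out the first QxG library, and 29.9% in GxQ. Solyc05g006150 was weaker, at 0.833, 1.14 and 1.13 CPM in G (at least 23.5-fold), and its QxG values of 1.47, 0.181 and 0.297 CPM again had the first library highest. Leaving that library out moved its share in QxG from 62.5% to 23.0% of the G level, and in GxQ the share was 46.4%. The next gene, Solyc05g006160, had a few counts in Q: it stood at 0.316, 0.244 and 0 CPM in Q and 4.46, 5.59 and 6.10 CPM in G. Its hybrid values were 2.80, 0.907 and 2.02 CPM in QxG and 2.096, 2.02 and 2.26 CPM in GxQ, all between the parents. Reads can be shared between neighbours of similar sequence, and how such reads were counted is not stated.

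The transcripts found in Q were also neighbours, and they varied between fruits. Solyc05g005940 stood at 2.57, 4.76 and 1.04 CPM in Q, at least 56.6-fold above 3 counts over the G libraries. In the hybrids it had counts in 1 of 3 QxG libraries, at 1.13 CPM, and in 1 of 3 GxQ libraries, at 0.219 CPM. Solyc05g005950 stood at 1.23, 2.85 and 0.550 CPM in Q, at least 31.2-fold above that limit, and at 0, 0 and 0.593 CPM in QxG and 0.409, 0.164 and 0.0566 CPM in GxQ. Solyc05g005960, beside them, had 3 counts in 1 G library and did not qualify. It followed the same order over the Q fruits, at 1.42, 2.24 and 0.385 CPM. Its hybrid values were 1.81, 0 and 0.178 CPM in QxG and 0.307, 0.164 and 0 CPM in GxQ. Unlike Solyc05g005940 and Solyc05g005950, it was highest of the QxG fruits in the first library. All 3 neighbours were highest in the second and lowest in the third Q library. This order was not particular to them: Solyc05g005990, Solyc05g006120 and Solyc05g006390, among other members, had it too, and some members did not. Hybrid means were 13.5% and 2.61% of the Q level for Solyc05g005940 and 12.8% and 13.6% for Solyc05g005950, in QxG and GxQ. Leaving out the first QxG library, where both had 0 counts, the QxG values were 20.2% and 19.2%.

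Other members higher in Q had counts in G as well. Solyc05g005990 stood at 7.63, 10.6 and 7.42 CPM in Q and 0.539, 0.337 and 0.274 CPM in G, a 22.0-fold difference (log2 4.46, SE 0.485). Its hybrid values were 6.12, 2.84 and 3.44 CPM in QxG and 4.09, 1.81 and 4.36 CPM in GxQ, between the parents in every library. Solyc05g005810 stood at 3.003, 2.56 and 4.62 CPM in Q and 0.147, 0.404 and 0.274 CPM in G (12.3-fold). In GxQ, at 0.562, 0.492 and 0.340 CPM, it lay close to G, and in QxG, at 1.21, 0.544 and 1.54 CPM, somewhat higher. Solyc05g006330 stood at 3.91, 1.87 and 4.67 CPM in Q and 0.392, 0.202 and 0.195 CPM in G (12.9-fold). Its hybrid values were 0, 1.03 and 0.949 CPM in QxG, with the 0 in the first library, and 0.971, 0.876 and 0.793 CPM in GxQ. Solyc05g006070 differed 2.00-fold, at 18.3, 20.8 and 22.9 CPM in Q and 9.95, 10.2 and 10.8 CPM in G. GxQ, at 8.74, 7.44 and 13.5 CPM, overlapped G, while QxG spread from 10.1 to 16.5 CPM.

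**Figure D2:**
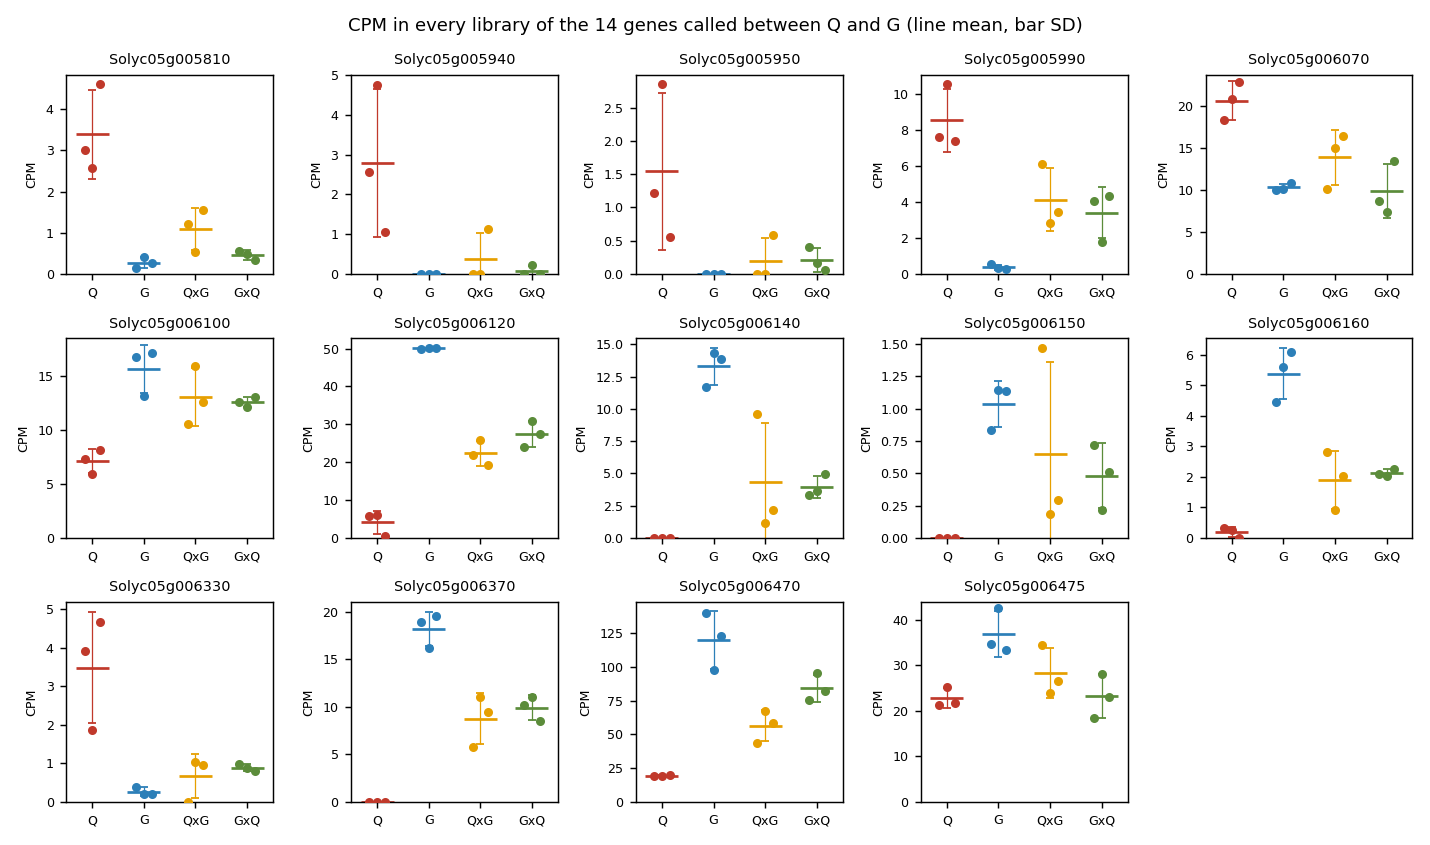
CPM in each of the 12 libraries for the 14 members called between Q and G, by genotype, with the mean (line) and SD (bar) of 3 libraries. Points of Q and G do not overlap in any panel, and the first QxG library lies above the others of its genotype for Solyc05g006140 and Solyc05g006150.

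Other members higher in G had counts in Q as well. Solyc05g006470 stood at 19.5, 19.3 and 19.6 CPM in Q, nearly the same in each fruit, and at 140, 97.6 and 123 CPM in G (6.19-fold, log2 -2.63, SE 0.188). Its hybrids lay between the parents and did not overlap each other, at 44.0, 67.1 and 58.5 CPM in QxG and 75.5, 95.3 and 82.1 CPM in GxQ. Between the hybrids it did not pass edgeR's test (log2 -0.58, adjusted p = 0.0607). Solyc05g006120 stood at 5.81, 6.02 and 0.550 CPM in Q and at 50.004, 50.2 and 50.2 CPM in G (11.9-fold). Its hybrid libraries ran from 19.2 to 25.8 CPM in QxG and 23.9 to 30.9 CPM in GxQ, all between the parents. Smaller differences were found for Solyc05g006100, at 7.27, 5.90 and 8.19 CPM in Q and 16.7, 13.1 and 17.2 CPM in G (2.204-fold), and for Solyc05g006475, next to Solyc05g006470. Solyc05g006475 stood at 21.3, 25.2 and 21.7 CPM in Q and 34.7, 42.6 and 33.3 CPM in G (1.62-fold). In the hybrids Solyc05g006100 stood nearer G, at means of 13.0 ± 2.69 and 12.6 ± 0.464 CPM in QxG and GxQ. Solyc05g006475 stood at 28.2 ± 5.53 CPM in QxG and, close to Q, at 23.2 ± 4.84 CPM in GxQ.

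The calls that chose the block partly rest on single libraries. Solyc05g005940, Solyc05g005950, Solyc05g006070, Solyc05g006330 and Solyc05g006475 each fell outside the threshold without any 1 of at least 6 libraries (highest adjusted p = 0.171 by edgeR). The number of called members was 9 without G 1, G 2, G 3, Q 1 or Q 2, which stand for the genotype and its replicate number. In these runs 1.87% to 3.06% of all genes were called, against 7.31% with all libraries. Nearest inside the threshold were Solyc05g005940, Solyc05g006475 and Solyc05g005950 (adjusted p = 0.0490, 0.0479 and 0.0435 by edgeR). Just outside were Solyc05g006530, Solyc05g006440 and Solyc05g006400 (adjusted p = 0.0531, 0.0760 and 0.0803), all higher in G. Solyc05g006530 stood at 35.1, 41.4 and 21.4 CPM in Q and 57.4, 61.3 and 57.0 CPM in G. Solyc05g006440 stood at 16.8, 11.4 and 15.9 against 31.3, 29.9 and 45.4 CPM. Among the 36 members not called, log2 differences ran from -1.97 to 4.70 with a median absolute value of 0.46, and 9 exceeded 2-fold. The largest adjusted p-values belonged to Solyc05g006170, with means of 73.7 ± 4.70 CPM (Q) and 71.2 ± 5.96 CPM (G), Solyc05g006510, at 1.92 ± 1.15 and 2.36 ± 0.875 CPM, and Solyc05g006215, at 16.8 ± 2.62 and 18.2 ± 3.94 CPM. A large p does not show that levels were equal, and the fruits of Solyc05g006510 in Q spread from 0.605 to 2.73 CPM. Solyc05g005910, named after its values were seen, varied widely between fruits of 1 genotype. In Q it stood at 4.70, 14.9 and 27.8 CPM, in G at 58.8, 56.6 and 69.2 CPM, in QxG at 63.0, 35.1 and 106 CPM, and in GxQ at 4.96, 67.3 and 4.19 CPM. A single GxQ library thus lay within the range of G and the other two near the lowest Q library.

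Dosage in the hybrids was described as the position of the hybrid mean between the lower parent (0%) and the higher parent (100%), where 50% is the mid-parent. For the 14 called members the median position was 35.6% in QxG and 33.5% in GxQ. Over all 1308 genes called between the parents it was 31.7% and 28.2%. All 14 lay between the parents in QxG and 13 in GxQ, against 78.7% and 69.6% of all called genes. The medians were 39.2% and 48.5% for the 8 higher in G, and 19.9% and 9.85% for the 6 higher in Q, in QxG and GxQ. Leaving out the values of the first QxG library, those in QxG were 32.3% and 23.6%. Single members went both ways: Solyc05g005990, higher in Q, stood at 46.0% and 37.2%, and Solyc05g006475, higher in G, at 38.9% and 3.04%. The difference between these groups of genes was not tested. Over all called genes these values were 35.4% and 42.0% for genes higher in G and 30.5% and 22.2% for genes higher in Q. The parental values that chose these genes also set the scale, so the positions are a description. The QxG median over the 14 was 25.3% without the first QxG library. Over the 5 transcripts found in 1 parent QxG had a median of 32.5% of the level in that parent and GxQ 29.9%. In QxG this median was 20.5% without the first QxG library.

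**Figure D3:**
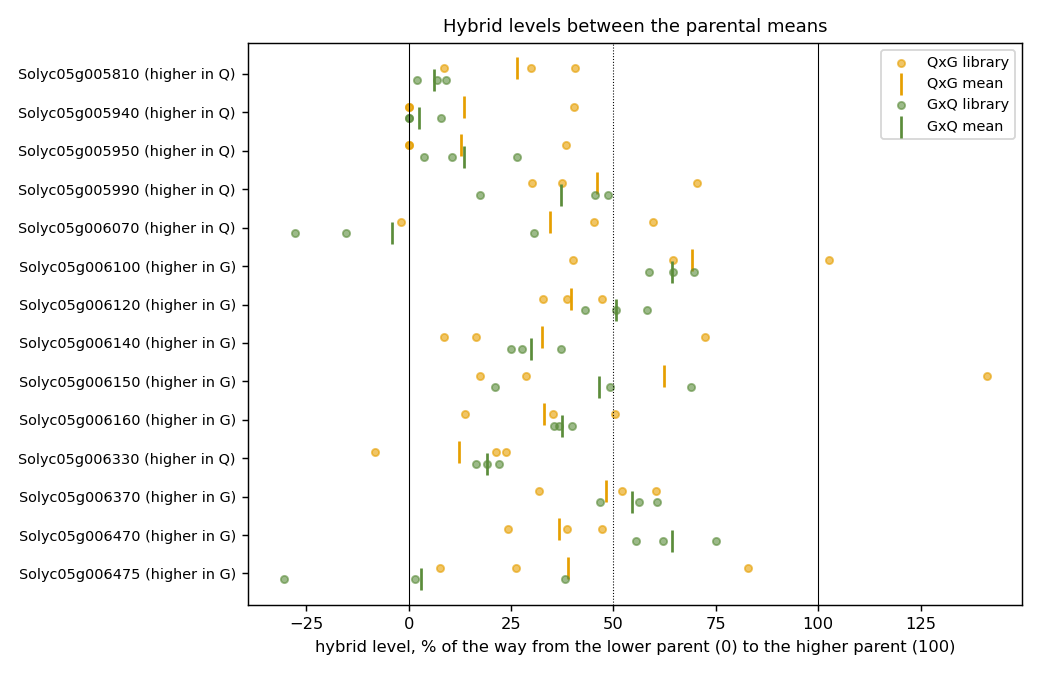
Position of each hybrid library (points) and of each hybrid mean (bars) between the mean of the lower parent (0%) and of the higher parent (100%) for the 14 called members. Most means lie left of 50%, with medians of 35.6% in QxG and 33.5% in GxQ, and single libraries reach beyond the parental range for some members.

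Libraries of the hybrids entered the choice of the block only through the scaling and the spread that the fit shares over all 12 libraries. The reciprocal hybrids differed in 2 of the 50 members, against 10.1% of all genes. Both were lower in QxG, against 7.49% of all genes, and 0 were higher, against 2.66%. Neither was called between Q and G. The count was 4 without QxG 2, against 9.22% of all genes. Solyc05g006390 stood at 0.647, 3.75 and 7.65 CPM in QxG and at 104, 36.6 and 52.0 CPM in GxQ. All QxG libraries lay below all GxQ libraries and below all parental ones, which spread from 14.1 to 71.8 CPM in Q and 20.4 to 52.8 CPM in G. The difference was 16.3-fold (log2 -4.02, SE 0.806, adjusted p = 0.00740 by edgeR). It was log2 -4.87 without the third QxG library, -3.45 without the first QxG library and -3.49 without the first GxQ library. Solyc05g006560, the last gene of the block, stood at 17.4, 12.6 and 14.1 CPM in QxG and at 47.2, 42.2 and 41.3 CPM in GxQ. Its parents stood at 27.6, 26.7 and 14.2 CPM in Q and 29.1, 21.5 and 32.4 CPM in G. All parental libraries lay below those of GxQ and, except for the third of Q, above those of QxG. QxG stood 2.96-fold below GxQ (log2 -1.57, SE 0.248, adjusted p = 0.00186 by edgeR). Both genes stayed called without any single library. They also stayed called in an edgeR fit of the hybrids alone with their shared replicate number as a block (adjusted p = 0.0331 and 0.00284). PL, a ripe flesh marker, stood at 1859 to 2382 CPM in QxG and 576 to 696 CPM in GxQ. The ripe flesh markers PSY1, PG2A and E8 overlapped between the hybrids. The part of these markers in the differences was not tested.

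For the other 48 members, log2 differences of QxG against GxQ ran from -1.64 to 2.24 and did not pass edgeR's test. At an unadjusted p under 0.05 there were 9 of these. With the 2 called genes that made 22% of the block, against 24.6% of all genes. Libraries of the hybrids did not overlap for 10 of the 50 members, against 26.5% of all genes. The median absolute log2 difference of 0.37 in the block compared with 0.35 over all genes. Of the 14 members called between the parents, 8 had the same sign in Q against G and in QxG against GxQ. The means compared share no library. Over all called genes this share was 59.0%.

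Against the arithmetic mid-parent, 4 of the 50 members were called for the mean of both hybrids, against 11.9% of all genes. Of these 3 were higher, against 5.77%, and 1 was lower, against 6.15%. The test was a Wald test on the edgeR fit, adjusted over all genes. Parental libraries, which chose the block, enter it, so it is not independent of the choice for genes that differ between the parents. None of the 4 was called between Q and G. Solyc05g006520 was 1.43-fold above the mid-parent (log2 0.52, SE 0.102, adjusted p = 0.00942). It stood at 161, 125 and 152 CPM in QxG and 133, 121 and 150 CPM in GxQ, against 88.8, 78.3 and 91.6 CPM in Q and 113, 116 and 100.4 CPM in G. All 6 hybrid libraries lay above all 6 parental libraries, which held for 1 of the 50 members and for 1.84% of all genes. This call held without any single library.

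Solyc05g006320 was 1.39-fold above the mid-parent (adjusted p = 0.0290 by the Wald test on the edgeR fit), at 28.3, 36.0 and 26.8 CPM in QxG and 33.7, 41.9 and 28.8 CPM in GxQ. Its parents stood at 28.3, 24.3 and 24.0 CPM in Q and 22.9, 19.0 and 22.1 CPM in G, and the first Q library overlapped QxG. Solyc05g006410 was 1.51-fold above (adjusted p = 0.0470), at 9.22, 10.4 and 10.9 CPM in QxG and 11.7, 10.5 and 11.2 CPM in GxQ. It stood at 6.92, 9.56 and 6.05 CPM in Q and 8.04, 4.44 and 7.12 CPM in G, and the second Q library overlapped QxG. Solyc05g006540 was 1.39-fold below (log2 -0.47, adjusted p = 0.0391), at 41.2, 37.9 and 31.4 CPM in QxG and 34.9, 30.6 and 26.9 CPM in GxQ. Its parents stood at 57.0, 44.2 and 33.9 CPM in Q and 44.8, 51.4 and 50.6 CPM in G, and the third Q library overlapped the hybrids.

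These calls ended without single libraries. Solyc05g006320 was lost without Q 2, any G library, QxG 2 or GxQ 2 (highest adjusted p = 0.0646 by the Wald test on the edgeR fit). Solyc05g006410 was lost without any library but Q 2 or QxG 1 (0.0910). Solyc05g006540 was lost without Q 1, Q 2, any G library, QxG 2, QxG 3, GxQ 2 or GxQ 3 (0.0959). The count of 4, beside 11.9% of all genes, became 1 without any 1 G library or GxQ 2 (6.32% to 8.97% of all genes). It became 2 without Q 1, Q 2, QxG 2 or GxQ 3 (6.42% to 10.3%).

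**Figure D4:**
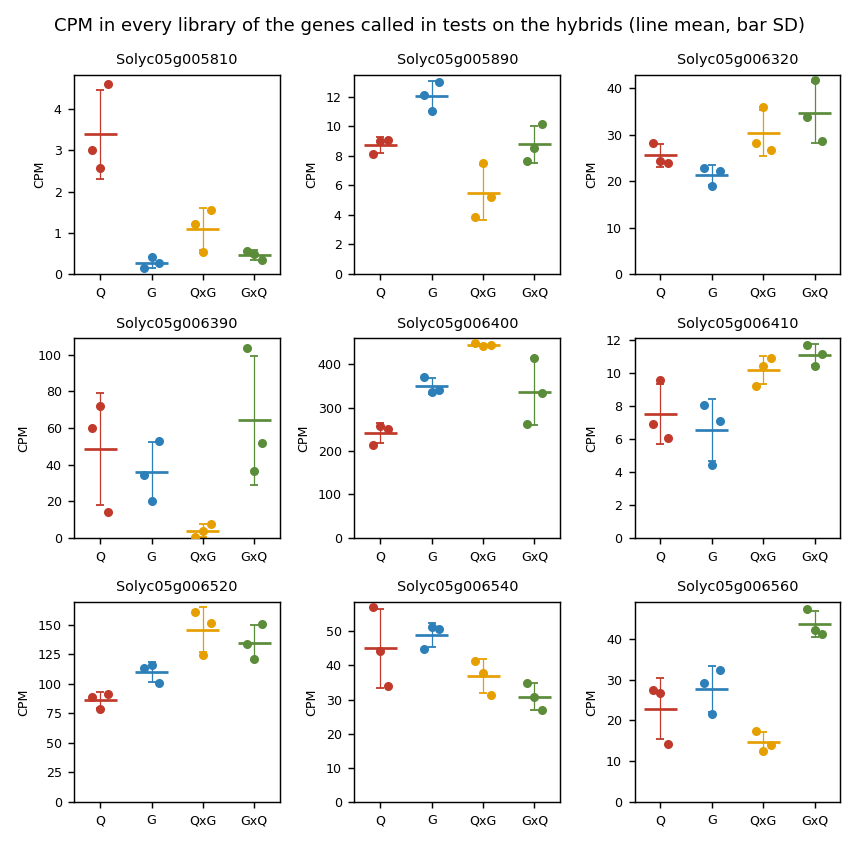
CPM in each of the 12 libraries for the 9 members called in at least 1 of the 4 tests on the hybrids, by genotype, with the mean (line) and SD (bar) of 3 libraries. QxG sits lowest for Solyc05g006390 and Solyc05g006560, GxQ sits highest for Solyc05g006560, and all hybrid points lie above the parental points for Solyc05g006520.

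Each hybrid alone was also set against the mid-parent. In QxG 5 of the 50 members were called, against 9.07% of all genes. Of these 2 were higher, against 2.73%, and 3 were lower, against 6.33%. In GxQ 5 were called as well, against 15.8%, with 3 higher, against 8.02%, and 2 lower, against 7.74%. Solyc05g006560 was called in both and in opposite directions: it was 1.72-fold below the mid-parent in QxG and 1.72-fold above it in GxQ (adjusted p = 0.0411 and 0.0261 by the Wald test on the edgeR fit). Solyc05g006520 was above the mid-parent in both (adjusted p = 0.0180 in QxG and 0.0281 in GxQ). Solyc05g006390 was 10.8-fold below in QxG (adjusted p = 0.0105), whereas its log2 difference in GxQ was 0.60 (adjusted p = 0.543).

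Against the mid-parent in QxG, Solyc05g005890 fell and Solyc05g006400 rose. Solyc05g005890 stood at 3.84, 7.50 and 5.22 CPM in QxG, below all libraries of Q (8.10, 9.04 and 9.07 CPM) and of G (12.1, 11.04 and 13.0 CPM). In GxQ, at 7.67, 8.54 and 10.1 CPM, it overlapped Q. It was 1.89-fold below the mid-parent in QxG (adjusted p = 0.0219). Solyc05g006400 stood at 448, 441 and 443 CPM in QxG, above all libraries of Q (215, 257 and 252 CPM) and of G (371, 337 and 341 CPM). It was 1.50-fold above the mid-parent there (adjusted p = 0.0326 by the Wald test on the edgeR fit), and GxQ spread from 262 to 415 CPM. Neither difference between the hybrids passed edgeR's test (adjusted p = 0.108 and 0.178). In GxQ, Solyc05g005810, described above, was 3.93-fold below the mid-parent (adjusted p = 0.0232), Solyc05g006320 was 1.48-fold above it (0.0248) and Solyc05g006540 was 1.53-fold below it (0.0264 by the Wald test on the edgeR fit). Solyc05g005810 is the 1 gene of these that was also called between Q and G, and with a mid-parent taken from log values it was not called (adjusted p = 0.178).

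Without single libraries, the call of Solyc05g006390 in QxG held throughout, and the others ended in some cases. In QxG, Solyc05g005890 was lost without Q 1, Q 2, G 1, G 3, QxG 1 or QxG 3 (highest adjusted p = 0.102 by the Wald test on the edgeR fit). Solyc05g006400 was lost without Q 1, any G or any QxG library (0.0996), and Solyc05g006520 without G 3 or QxG 3 (0.0682). Solyc05g006560 was lost without any library but Q 3, G 2, QxG 1 or GxQ 2 (0.141). In GxQ, Solyc05g005810 was lost without Q 3, GxQ 2 or GxQ 3 (0.0818). Solyc05g006320 was lost without Q 2, GxQ 1 or GxQ 2 (0.121), and Solyc05g006520 without Q 2, G 1, G 3, GxQ 1 or GxQ 3 (0.141). Solyc05g006540 was lost without G 2, G 3, GxQ 2 or GxQ 3 (0.103), and Solyc05g006560 without G 2 or any GxQ library (0.0872). The count in QxG was 1 without G 3 or QxG 3 (4.24% and 2.72% of all genes). It was 2 without Q 1 or G 1 (4.41% and 5.05%) and 3 without Q 2 or QxG 2 (4.48% and 6.28%). The count in GxQ was 2 without any 1 GxQ library (7.77% to 10.6% of all genes). It was 3 without G 2 or G 3 (11.6% and 11.1%) and 8 without QxG 1 (21.4%).

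The other 28 members were called neither between the parents nor in any test on the hybrids. Of these, Solyc05g005800, the first gene of the block, stood at 117 ± 4.52 CPM in Q, 96.9 ± 5.45 in G, 120 ± 6.91 in QxG and 122 ± 17.0 in GxQ. Solyc05g006170 stood at 94.8 ± 31.7 CPM in QxG and 108 ± 9.31 CPM in GxQ, means above the parental ones given earlier, and did not pass against the mid-parent (log2 0.49, adjusted p = 0.0560 by the Wald test on the edgeR fit). Solyc05g006530 stood at 37.5 ± 8.76 CPM in QxG, near Q, and at 56.7 ± 9.72 CPM in GxQ, near G, and this difference did not pass edgeR's test (adjusted p = 0.145).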

How the data were processed

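RNA-seq was analysed from 12 libraries of ripe fruit mesocarp, 3 for each of 4 genotypes. The authors deposited whole numbers with unequal library totals, which were taken as unscaled counts. The deposit's name calls them normalized, and no source says whether they were altered; CPM and the limits for 0 would then shift. Per the submitters' processing notes, which give no roles, FastQC, fastp 0.21, HISAT2 2.1.0, featureCounts, Subread, edgeR and R 4.0.3 were used. Build, annotation, strand setting and the handling of reads with several matches are not stated in the labels, so overlapping genes, near-identical copies and poorly mapping wild alleles may be miscounted. All 12 columns matched a sample label. No identifier matched the RefSeq gene table (0 of 17887, with 41476 RefSeq genes), so no names or sequences are given. Marker names rest on general knowledge. By symbol, PG2A, PL, CER6 and CD2 each matched 1 RefSeq gene on the chromosome of their identifier. The symbol E8 matched 1 RefSeq gene not listed on that chromosome, and PSY1 and RBCS2A matched 0.

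With edgeR 4.0.16 in R 4.3.3, counts were scaled by TMM and fitted with 1 mean per genotype over all libraries (common biological coefficient of variation 0.309, residual degrees of freedom 8, prior 3.99). Q against G and QxG against GxQ were tested by quasi-likelihood F tests. Hybrids were tested against the arithmetic mid-parent by a Wald test on the same fit, with the standard error by the delta method and counting error as its floor. P-values were adjusted by Benjamini-Hochberg over 17887 genes, and calls are at 0.05. Standard errors of F tests are the log2 fold change over the square root of F. Both tests were run on simulated counts in which only well-counted genes were changed. The simulation does not cover genes with 0 counts in a parent or libraries that stand apart. CPM use TMM-scaled totals; errors are SDs. The block and lists were chosen with earlier results of these data known. Named members were those called in any comparison or found in 1 parent, plus the 3 nearest the threshold on each side, the 3 smallest and 3 largest adjusted p and the 3 highest means among the rest, and the nearest called flanking genes.

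Alternatives were DESeq2 1.42.0, its size factors, a filter of 10 counts in 3 libraries, a replicate block, a log mid-parent, fits of parents or hybrids alone, and leaving out libraries. Deviations from the group means of same-numbered QxG and GxQ libraries, on log2 of CPM plus 0.5, correlated at 0.164, 0.333 and 0.209, so the labels' replicate numbers were taken to pair the hybrids; in every other pairing of genotypes at least 1 value was 0.1 or less. Replicates differed by more than sampling noise, with chi-square values of 15.3 to 139 per gene.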

Additional observations from a re-analysis of the deposited data

Results flagged for a closer look

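The reciprocal hybrids differed from each other in 2 of the 50 genes of the block, against 10.1% of all genes, by edgeR's test of the difference itself. Solyc05g006390 had a log2 difference of -4.02 (QxG against GxQ), with all QxG fruits below all parental fruits. Solyc05g006560 had a log2 difference of -1.57, with QxG below and GxQ above the mid-parent. The summed epidermis markers, RBCS2A and the ripe flesh markers PSY1, PG2A and E8 overlapped between the hybrids. The ripe flesh marker PL did not (1859 to 2382 CPM in QxG, 576 to 696 CPM in GxQ). Summed, the 4 ripe flesh markers stood at 17397 to 24185 CPM in QxG and 11855 to 17636 CPM in GxQ. The part of tissue make-up in these differences was not tested.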

How the results depend on the processing

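No result reversed in direction under the alternatives run. The number of members called between Q and G was 9 to 17 without single libraries, against 1.87% to 12.3% of all genes. The replicate block gave 11 (7.38%), of which 10 were among the 14, though the parents' replicates share only a number. A fit of the parents alone called 20 (14.3%). With the replicate block QxG against GxQ kept both calls, and of the calls against the mid-parent Solyc05g006410 alone was lost (adjusted p = 0.0698 by the Wald test on the edgeR fit). QxG against GxQ gave 2 to 4 calls without single libraries (6.3% to 12.3% of all genes). Both hybrids against the mid-parent gave 1 to 6 (6.32% to 15.6%). Against the mid-parent, QxG alone gave 1 to 5 (2.72% to 13.9%) and GxQ alone 2 to 8 (7.77% to 21.4%). Without both the third Q and the first QxG library, calls numbered 5 for QxG against GxQ (14.1% of all genes), 7 for both hybrids (20.8%) and 8 for GxQ (23%), and Solyc05g005890 was lost in QxG (adjusted p = 0.0510). With a log mid-parent, which lies below the arithmetic one by construction, calls numbered 9 for both hybrids (11.4% of all genes) and 8 for GxQ (15.8%). At a minimum of 5 CPM, 2 members were found in 1 parent, and the share of all genes at this minimum was not computed. Without single libraries the median position of the 14 called members was 25.3% to 39.8% in QxG and 28.6% to 34.7% in GxQ. The median level of the 5 one-parent transcripts was 20.5% to 42.9% and 26.2% to 32.3%, and 15.9% in QxG without both libraries that stood apart. DESeq2 called 19 members between Q and G (14.8% of all genes) and 3 between the hybrids (15.2%). The cause of these shifts was not tested. Genes near 1 CPM rest on few counts, so their hybrid positions are imprecise.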
